A study of Mus musculus with 2 samples.

Results

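The proteasome genes described here are the protein-coding mouse genes whose symbol begins with Psma, Psmb, Psmc, Psmd, Psme, Psmf or Psmg and a number. In the GENCODE annotation of GRCm38, 54 symbols of the deposited gene tables matched, and 50 of them were protein-coding, of 21474 protein-coding genes and 43346 mouse gene IDs in all. The other 4 were pseudogenes with at most 3 counts in either library and were left out. By role the 50 genes fell into 7 subunits of the alpha ring, 1 alpha subunit of male germ cells, 4 beta subunits without an active site, 3 immune, 1 thymic and 3 constitutive catalytic subunits, 6 ATPases and 11 non-ATPases of the cap, 3 cap assembly chaperones, 5 activators, 1 inhibitor, 4 core assembly chaperones and Psmc3ip, which shares only the symbol.

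The proteasome is a barrel-shaped protease that cuts ubiquitin-tagged proteins into peptides. Its core is a stack of alpha and beta rings, and the beta ring holds catalytic positions called beta1, beta2 and beta5. A cap of ATPases and non-ATPases recognises the tagged protein, unfolds it and feeds it into the core. In immune cells and under interferon, Psmb9, Psmb10 and Psmb8 replace Psmb6, Psmb7 and Psmb5 at beta1, beta2 and beta5, which alters the peptides offered on MHC class I. Cortical epithelial cells of the thymus, the cells that select developing CD8 T cells, carry a further beta5 subunit, Psmb11, and their particle is known as the thymoproteasome.

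The series holds 1 group, the thymus of newborn mice of strain B6NCrl at day 0 after birth, with no treatment and no altered allele named in the labels. Pup 6 of a Charles River female gave replicate 1, pup 7 gave replicate 2, and the sex was not collected. Each library was made from 13 pg of total RNA, given in the labels as 1 cell-equivalent, of bulk tissue and not of a sorted cell. Both carry 1 donor entry in the labels, and differences between the libraries can come from the pup, the handling of the RNA or the library preparation, which cannot be told apart. With 2 libraries of 1 group there was no contrast to test, and an exact sign test over both could not fall below p = 0.5 (two-sided), so values of both libraries are given without p-values. A pair of values with no other label belongs to replicates 1 and 2, and errors are SDs over the 2 libraries.

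The tables held 27003123 and 32980032 estimated reads (expected counts) in replicates 1 and 2, of which 25999043 and 31902773 fell on mouse genes. Levels are given in TPM, which corrects for transcript length, rescaled here to 1000000 over mouse genes in each library. As a check of the thymus label, 11 of 11 T-lineage markers were read in both libraries, with summed levels of 16666 and 16859 TPM. Of 9 markers of cortical thymic epithelium other than Psmb11, 6 were read in both libraries, and their sums were 4480 and 5182 TPM. Medullary epithelial markers summed to 459 and 681 TPM, pan-epithelial markers to 1527 and 1925 TPM, and macrophage and dendritic markers to 491 and 1036 TPM, with the dendritic markers Itgax and Siglech at 0 in both. Mesenchymal markers summed to 1286 and 1034 TPM, endothelial markers to 220 and 121 TPM, erythroid markers to 3527 and 9132 TPM and muscle markers to 961 and 372 TPM.

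The 7 catalytic subunits differ in sequence around the active site. Each is made as a precursor whose leading peptide is removed during assembly, and the threonine exposed at the new end of the chain is the catalytic residue. The coding bases around that threonine codon are shown to compare the genes that share a position, with 18 bases before the codon, the codon itself in capitals, and the bases that follow.
Psmb8: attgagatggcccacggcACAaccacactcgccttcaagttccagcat
Psmb11: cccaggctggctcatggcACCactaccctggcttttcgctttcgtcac
Psmb5: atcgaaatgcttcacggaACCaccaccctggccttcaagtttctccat
Psmb9: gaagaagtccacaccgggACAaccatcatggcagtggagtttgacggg
Psmb6: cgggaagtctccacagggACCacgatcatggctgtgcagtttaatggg
Psmb10: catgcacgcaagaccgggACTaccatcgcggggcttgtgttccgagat
Psmb7: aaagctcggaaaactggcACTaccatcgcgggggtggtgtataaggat

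The sequences were read 5′ to 3′ on the coding strand from the GENCODE transcripts of GRCm38. The beta5 bases lay at chr17:34199284-34199331 (plus strand, exon 3 of transcript Psmb8-203) for Psmb8 and at chr14:54625456-54625503 (plus strand, in the single exon of Psmb11) for Psmb11. For Psmb5 they were split over exons 1 and 2 at chr14:54617794-54617832 and chr14:54616813-54616821 (minus strand). The beta1 bases of Psmb9 lay at chr17:34187250-34187267 and chr17:34185768-34185797 (minus strand, exons 1 and 2 of Psmb9-204), and those of Psmb6 at chr11:70525478-70525495 and chr11:70525885-70525914 (plus strand, exons 1 and 2). The beta2 bases of Psmb10 lay at chr8:105937679-105937723 and chr8:105937589-105937591 (minus strand, exons 2 and 3), and those of Psmb7 at chr2:38643358-38643402 and chr2:38642273-38642275 (minus strand, exons 2 and 3).

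From the threonine codon onward, Psmb8 matched Psmb5 at 24 of 30 bases, Psmb9 matched Psmb6 at 24 of 30 and Psmb10 matched Psmb7 at 23 of 30. Psmb11 matched Psmb5 at 21 of 30 bases and Psmb8 at 17 of 30. The 16 pairs of genes from different positions matched at 12 to 19 of 30 bases, so the Psmb8 and Psmb11 pair lay within their range. The codons before the threonine, which encode the peptide that is cut away, numbered 72 in Psmb8, 49 in Psmb11 and 59 in Psmb5. They numbered 20 in Psmb9 and 33 in Psmb6, and 39 in Psmb10 and 43 in Psmb7. Some of these genes are neighbours on the chromosome. The annotated bounds of the genes Psmb11 and Psmb5 lie 3410 bases apart on chromosome 14, on opposite strands. Psmb8 and Psmb9 lie 9956 bases apart on chromosome 17, also on opposite strands, with Tap1 between them, which encodes a transporter that carries proteasome products into the endoplasmic reticulum.

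The 50 genes were expressed at high levels as a set. They summed to 14572 TPM in replicate 1 and 14246 TPM in replicate 2, or 1.46% and 1.42% of mouse TPM. Of the 50, 46 had 1 or more counts in both libraries and 4 in replicate 2 alone (Psma8, Psmc3ip, Psmg2 and Psmg3), whereas 32.1% of all protein-coding genes were read in both. By mean level, 31 of the 50 were among the 1000 highest protein-coding genes. The plot of member levels by class shows most alpha and beta ring genes near the top.

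**Figure D1:**
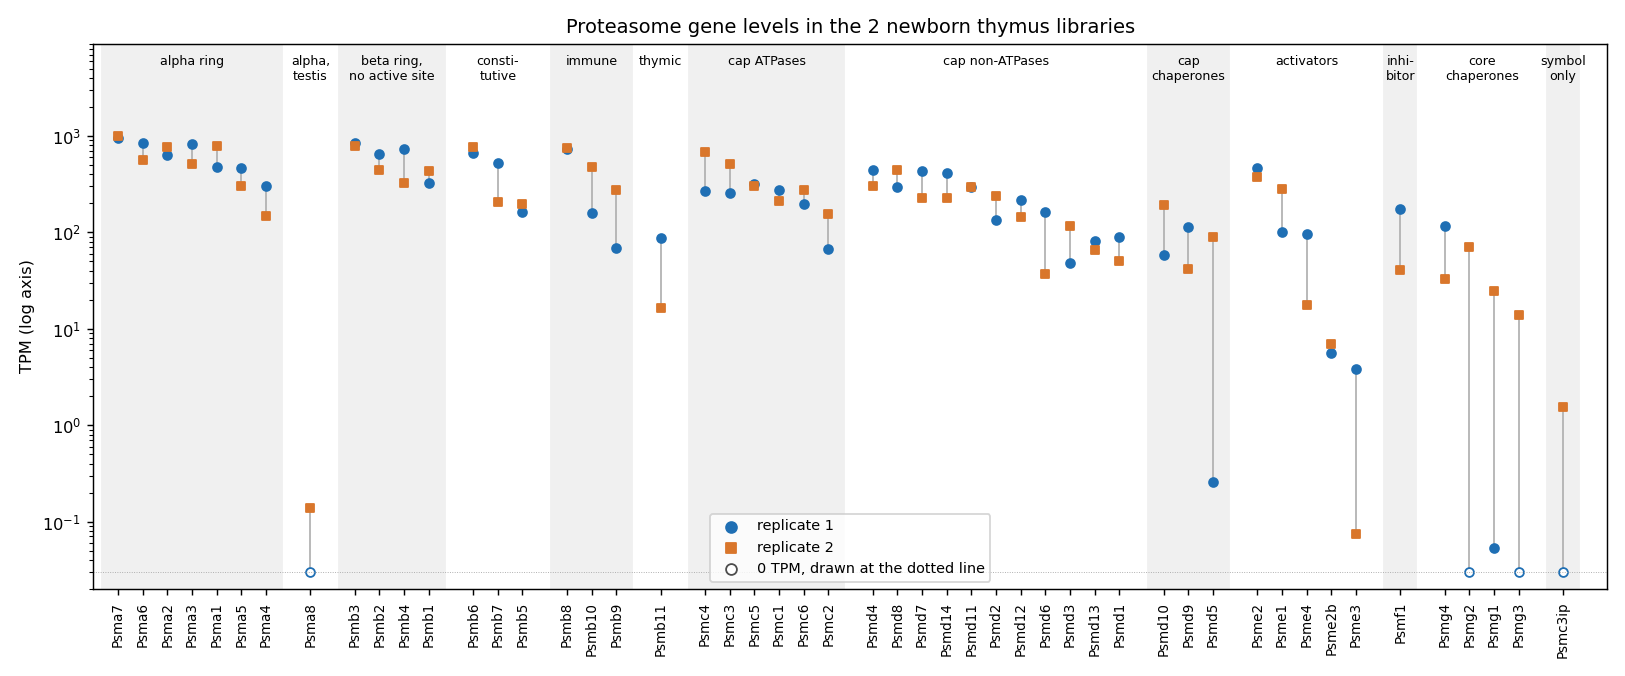
TPM (log axis) of each of the 50 proteasome genes in replicate 1 (blue circles) and replicate 2 (orange squares), grouped by role, with a grey line joining the 2 libraries and open symbols for a level of 0. Both libraries place every alpha ring gene between 148 and 1007 TPM, while Psmd5, Psmg1, Psmg2 and Psmg3 are near or at 0 in replicate 1.

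The beta5 position gave the steadiest balance of immune over constitutive transcripts. Psmb8, the immune subunit of beta5, had 734 and 749 TPM in replicates 1 and 2 (15986 and 17370.5 counts), a mean of 742 ± 10.1 TPM (SD, n = 2). Psmb5, the constitutive subunit, had 162 and 195 TPM (2553 and 3478 counts), a mean of 178 ± 23.5 TPM. Psmb8 was thus the higher in both libraries, and the ranges of the genes did not overlap. On the log2(TPM + 1) scale Psmb8 exceeded Psmb5 by 2.18 in replicate 1 and 1.93 in replicate 2, a mean of 2.05 ± 0.17. Immune transcripts held 74.6% and 78.0% of the summed beta5 TPM, constitutive transcripts 16.4% and 20.3%.

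Psmb11, the thymic subunit, was the least abundant beta5 gene in both libraries and differed between the pups. It had 87.8 TPM (7440 counts) in replicate 1 and 16.3 TPM (1562 counts) in replicate 2, a mean of 52.0 ± 50.5 TPM, or a log2 ratio of replicate 1 over replicate 2 of 2.36. Its share of beta5 TPM was 8.92% and 1.70%, a mean of 5.31 ± 5.11%. Relative to Psmb8 it stood at 0.120 and 0.0218, and relative to Psmb5 at 0.542 and 0.0836. Psmb11 has a long transcript for a proteasome gene (4247 bases, against 815 bases for Psmb8-203, 1628 bases for Psmb8-201 and 871 bases for Psmb5). Its share by reads was therefore larger than its share by TPM: without length correction it averaged 17.8%. Of the 9 other cortical epithelial markers, 4 were higher in replicate 1, as Psmb11 was, and 5 in replicate 2. Prss16, a serine protease of these cells, had 419 and 287 TPM, Ccl25, a chemokine, 857 and 657 TPM, and Ctsl, a cathepsin, 2659 and 3474 TPM. Foxn1, the epithelial transcription factor, had 0 and 1129 counts, Enpep 0 and 2260 counts, and Dll4, a Notch ligand, 2471 and 0 counts. Fewer epithelial cells and less RNA per epithelial cell cannot be told apart in bulk tissue, and the part of cell makeup in the Psmb11 difference was not tested.

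At beta1 the constitutive subunit led in both libraries. Psmb9, the immune subunit, had 69.2 and 275 TPM (794 and 6936 counts), a mean of 172 ± 146 TPM. Psmb6, the constitutive subunit, had 667 and 768 TPM (9496 and 12336 counts), a mean of 718 ± 71.2 TPM. The log2 ratio of Psmb9 over Psmb6 was -3.25 in replicate 1 and -1.48 in replicate 2, a mean of -2.36 ± 1.25, and Psmb9 held 9.40% and 26.4% of beta1 TPM. Psmb9 was below Psmb6 in both libraries, and its distance from Psmb6 differed between the pups.

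At beta2 the balance had opposite signs in the 2 pups. Psmb10, the immune subunit, had 159 and 480 TPM (3809 and 12990 counts), a mean of 320 ± 227 TPM. Psmb7, the constitutive subunit, had 518 and 207 TPM (10832 and 4881 counts), a mean of 363 ± 220 TPM. Psmb10 was thus below Psmb7 in replicate 1 and above it in replicate 2. The log2 ratio of Psmb10 over Psmb7 was -1.70 and 1.21, a mean of -0.24 ± 2.06, which is within the spread of the libraries. The sum of both genes was steadier, at 677 and 687 TPM, and Psmb10 held 23.5% and 69.9% of it.

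**Figure D2:**
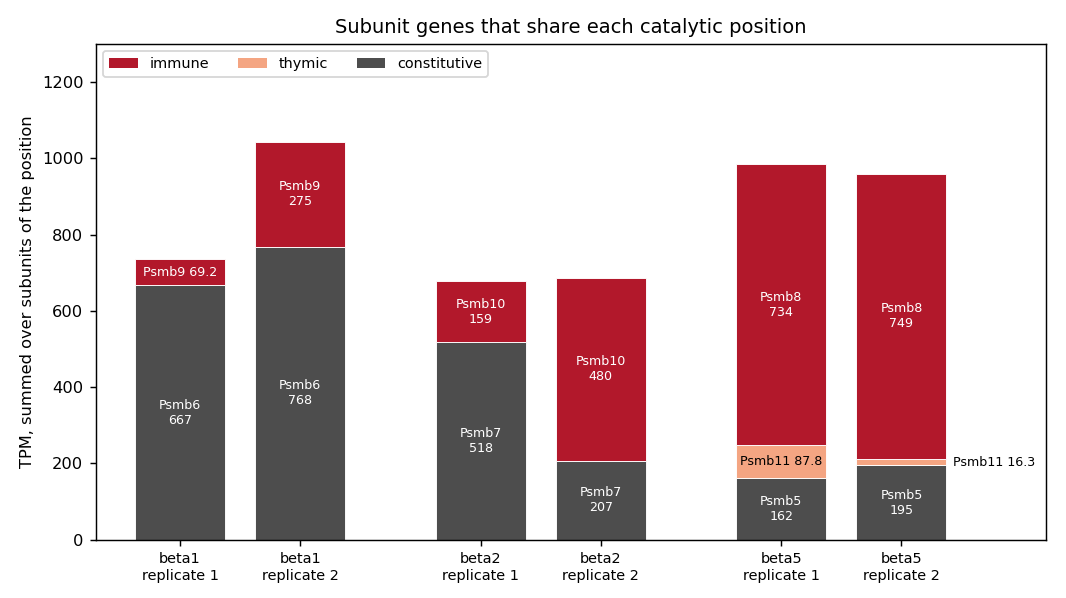
Stacked bars of TPM for the genes that share each catalytic position, with immune (red), thymic (light orange) and constitutive (grey) subunits in each of the 2 libraries. Psmb8 makes up most of beta5 in both libraries, Psmb6 most of beta1 in both, and beta2 is mostly Psmb7 in replicate 1 and mostly Psmb10 in replicate 2.

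Summed over positions, immune subunits had 963 and 1504 TPM and constitutive subunits 1347 and 1170 TPM, a ratio of 0.715 in replicate 1 and 1.29 in replicate 2. All 3 immune genes had log2 ratios of replicate 1 over replicate 2 below 0, at -0.03 for Psmb8, -1.98 for Psmb9 and -1.59 for Psmb10. For Psmb8 the direction turned with the scaling, since it had 615 and 544 counts in each 1000000 mouse counts. Of 7 regulators of proteasome or class I genes, 6 also had a higher TPM in replicate 2. Irf1, an interferon-responsive transcription factor, had 68.4 and 140 TPM, and Nlrc5, an activator of MHC class I genes, 0 and 283 counts. Macrophage and dendritic markers, whose cells can also express immune subunits, summed to 491 and 1036 TPM, with Tyrobp at 84.0 and 354 TPM, C1qb at 238 and 176 TPM and Csf1r at 1051 and 1 counts. Of the 8 with enough counts to compare, 6 were higher in replicate 2 and 2 in replicate 1. Their part in the immune subunit values was not tested.

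For 6 of the 7 catalytic genes, the transcript with the highest TPM was the same in both libraries, and Psmb9 was the exception. In replicate 1 Psmb9-202 (433 bases) gave 75.2% of Psmb9 TPM, whereas in replicate 2 Psmb9-204 (1351 bases) gave 81.7%. Because a short transcript gets more TPM per read, Psmb9 differed 7.12-fold between the libraries in counts per mouse count and 3.93-fold in TPM + 1. Psmb8 was split between Psmb8-203 (57.1% and 64.6%) and Psmb8-201 (42.8% and 35.1%) in both libraries. Psmb6-201 gave 78.3% and 97.3% of Psmb6, and Psmb5, Psmb10 and Psmb11 had 1 transcript each. Psmb9 exons overlap Tap1 (9711.6 and 6901 counts) and Psmb7 exons overlap Nek6 (2905 and 2 counts) on the opposite strand. Whether the counting used strand is not given in the sources used here, so reads in such overlaps may be assigned to the wrong gene.

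The alpha ring, which gates entry to the core, had median levels of 631 and 562 TPM, a mean of 596 ± 49.1 TPM. Psma7 was the highest of the 7 in both libraries, with 953 and 1007 TPM, and ranked first of all 50 genes. Psma4 was the lowest of the 7 in both, with 305 and 148 TPM. Between them, Psma1 had 474 and 786 TPM, Psma2 631 and 763, Psma3 822 and 509, Psma5 464 and 303 and Psma6 839 and 562 TPM. Of these intermediate genes, Psma1 and Psma2 were higher in replicate 2 and the other 3 in replicate 1, so their order was not stable. Psma8, which replaces Psma7 in spermatocytes, had 0 and 5 counts (0 and 0.139 TPM).

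Among the beta subunits without an active site, Psmb3 was the highest in both libraries, with 853 and 790 TPM. Psmb2 had 657 and 446 TPM, Psmb4 738 and 324 TPM and Psmb1 322 and 430 TPM. The class median was 697 TPM in replicate 1, above that of the alpha ring, and 438 TPM in replicate 2, below it.

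The positions of the core are filled in equal numbers. Psmb5, Psmb6 and Psmb7 share theirs with immune and thymic subunits, so equal numbers do not hold for these genes alone. The 14 constitutive core genes (alpha ring and beta ring, with Psmb5, Psmb6 and Psmb7) had unequal transcript levels. Their medians were 644 and 477 TPM, and the highest exceeded the lowest 5.89-fold and 6.80-fold. Within the alpha ring alone, the highest exceeded the lowest 3.13-fold and 6.80-fold. The SD of log2 TPM over the 14 genes was 0.71 and 0.87, a mean of 0.79 ± 0.11. The same measure was 0.85 and 0.84 over the 8 subunits of TRiC, a chaperonin that is also built from equal numbers of each subunit. Over 75 genes of cytosolic ribosomal proteins it was 1.09 and 1.45.

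The cap stood below the core. Over its 17 genes the median was 255 TPM in replicate 1 and 227 TPM in replicate 2, against 644 and 477 TPM over the 14 core genes. Cap over core was therefore 0.396 and 0.475, a mean of 0.436 ± 0.0558. In replicate 1, 17 of 17 cap genes were below the core median, and in replicate 2, 15 of 17 were. The 2 exceptions were the ATPases Psmc3 and Psmc4. Only 5 of the 17 in each library were below the lowest core gene (162 TPM for Psmb5 in replicate 1 and 148 TPM for Psma4 in replicate 2), so cap and core levels overlapped. Psmb5 shares its position with Psmb8 and Psmb11. The lowest alpha ring gene in replicate 1, Psma4, had 305 TPM, which only Psmd4, Psmd7, Psmd14 and Psmc5 of the cap exceeded.

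The ATPases, which form the ring that unfolds the substrate, had medians of 261 and 289 TPM. Psmc5 had the highest level in replicate 1 (317 TPM, against 303 TPM in replicate 2) and Psmc4 in replicate 2 (682 TPM, against 266 TPM in replicate 1). Psmc2 was the lowest in both, with 66.5 and 155 TPM. Psmc3 had 255 and 517 TPM, Psmc1 273 and 213 TPM and Psmc6 195 and 274 TPM. Of the 6 ATPases, 4 were higher in replicate 2 and 2 in replicate 1, and none was 4-fold apart. Of protein-coding genes with a mean of 100 to 200 TPM, 15.3% were 4-fold apart, and of those at 200 to 500 TPM, 6.63% were.

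The non-ATPases had medians of 216 and 225 TPM. Psmd4, a receptor for ubiquitin chains, was the highest in replicate 1, with 444 TPM, and had 303 TPM in replicate 2. Psmd8, a lid subunit, was the highest in replicate 2, with 446 TPM, and had 297 TPM in replicate 1. Psmd14, the enzyme that removes the ubiquitin chain, had 413 and 227 TPM, and its partner Psmd7 had 429 and 225 TPM. The pair thus had like gene levels within each library. In replicate 1, however, coding transcripts gave 58.0% of Psmd14 TPM (240 TPM) and 100% of Psmd7 TPM. In replicate 2 they gave 98.3% and 100%. Psmd2, a scaffold of the base, had 134 and 239 TPM, and Psmd1, the other large scaffold, had 88.9 and 50.9 TPM. Psmd11 and Psmd12 had 293 and 296 TPM and 216 and 143 TPM. The lowest levels were 48.0 TPM for Psmd3 in replicate 1 (115 TPM in replicate 2) and 37.4 TPM for Psmd6 in replicate 2 (162 TPM in replicate 1), both lid subunits. Psmd13 was low in both, with 80.8 and 65.9 TPM.

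Activators bind the ends of the core in place of the cap. Psme1 and Psme2, which form a ring together and respond to interferon, had 102 and 284 TPM and 465 and 377 TPM. Psme2 was the higher in both libraries, and Psme1 over Psme2 was 0.220 in replicate 1 and 0.752 in replicate 2. Psme3, the activator found mainly in the nucleus, was barely read, with 3.83 TPM (201 counts) and 0.0748 TPM (1 count). Psme4, which acts in DNA repair and in male germ cells, had 97.2 and 17.5 TPM. In replicate 1, 70.3% of Psme4 TPM came from a 695-base transcript annotated as non-coding, while in replicate 2 coding transcripts gave 100%. Psme2b, a close relative of Psme2, had 5.61 and 7.01 TPM, and its counts were not whole numbers in either library, so some of its reads may come from Psme2. Psmf1, an inhibitor of the core, had 174 and 40.5 TPM.

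Of the core assembly chaperones, Psmg1 and Psmg2 pair up to build the alpha ring, and Psmg3 and Psmg4 form the other pair. Psmg1 had 1 and 475 counts (0.0535 and 24.9 TPM), a ratio of 387 for replicate 2 over replicate 1 in counts per mouse count, with a 95% exact interval from counting alone of 69.1 to 15321. Psmg2 had 0 and 1569 counts (0 and 70.8 TPM), at least 426-fold higher in replicate 2 when replicate 1 is set to the 3 counts that a count of 0 allows. Psmg3 had 0 and 730 counts (0 and 13.7 TPM), at least 198-fold higher in replicate 2 on the same floor. All of its TPM in replicate 2 came from Psmg3-203, a transcript annotated as a retained intron, and its coding transcripts were at 0 in both libraries. Coding transcripts gave 57.9% of Psmg1 TPM and 100% of Psmg2 TPM in replicate 2. Psmg4 went the other way, with 117 and 32.6 TPM (970 and 283 counts). The partners in each pair thus did not share a pattern across both pairs: Psmg1 and Psmg2 were both near or at 0 in replicate 1, whereas Psmg3 was at 0 where Psmg4 was higher. Pomp, the core maturation factor, which was outside the symbol rule, had steady levels of 472 and 527 TPM. Intervals and floors cover counting error only, since the tables carry no molecular identifiers.

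Of the cap chaperones, which hold ATPases apart until the base is built, Psmd5 had 10 and 3980 counts (0.257 and 89.7 TPM). Psmd9 had 113 and 42.0 TPM and Psmd10 58.8 and 193 TPM. Psmd5 and Psmd10 were higher in replicate 2, and Psmd9 was higher in replicate 1. Psmc3ip, a meiotic recombination factor and not a proteasome subunit, had 0 and 38.07 counts.

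The libraries agreed on the abundant members and diverged on the low ones. At a mean of 100 or more counts, 48 of the 50 genes were compared, and Psma8 and Psmc3ip were not. Of the 48, 9 (18.8%) were at least 4-fold apart on the log2(TPM + 1) scale, which understates changes of low genes, whereas 50.5% of the 8594 protein-coding genes with as many counts were. Psmb11, Psmd6, Psme3, Psme4 and Psmf1 were the 5 higher in replicate 1 (background 21.2%), and Psmd5, Psmg1, Psmg2 and Psmg3 were the 4 higher in replicate 2 (background 29.2%). Psmb9, with a log2 ratio of -1.98, lay just short of 4-fold, and Psmf1, with 2.08, just past it. Only 1 of the 31 constitutive core and cap genes, Psmd6, was among the 9, with a log2 ratio of 2.09. At 3 or fewer counts in 1 library were 4 of the 48 (Psme3, Psmg1, Psmg2 and Psmg3), against 34.4% of the 8594. The median absolute log2 ratio was 0.85 over the 48 genes and 2.04 over the 8594, which were not matched for level. The 48 were split evenly, with 24 higher in each library, and their median log2 ratio was 0.03, against -0.17 over the 8594.

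The share that was 4-fold apart fell with level. Among protein-coding genes with a mean of 10 to 50 TPM, 3 of 3 proteasome genes and 67.8% of all were 4-fold apart, and at 50 to 100 TPM, 3 of 8 and 31.2%. At 100 to 200 TPM the values were 1 of 8 and 15.3%, at 200 to 500 TPM 0 of 16 and 6.63%, and at 500 TPM or more 0 of 10 and 0%. At matched level the proteasome genes were therefore close to the background share, with few genes in each bin. Their median absolute log2 ratio was not below that of all protein-coding genes in most bins. It was 6.17 against 4.51 at 10 to 50 TPM, 1.61 against 1.14 at 50 to 100 and 1.34 against 0.848 at 100 to 200. At 200 to 500 TPM it was 0.600 against 0.621, and at 500 TPM or more 0.416 against 0.346. These bins hold 45 of the 48 genes, and Psme2b, Psme3 and Psmg3 had means below 10 TPM.

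**Figure D3:**
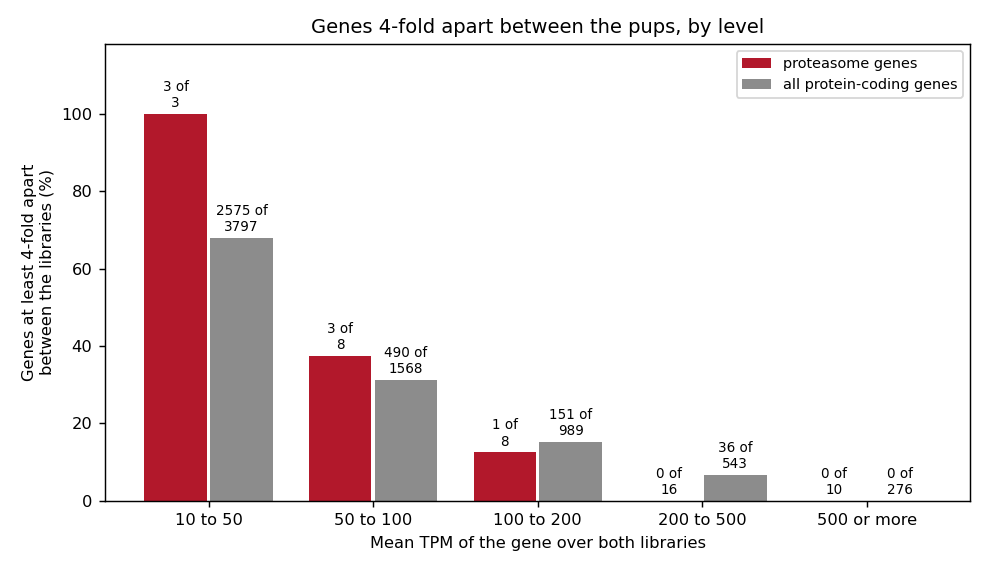
Percent of genes at least 4-fold apart between the libraries (TPM + 1) in bins of mean TPM, for proteasome genes (red, left) and all protein-coding genes (grey, right), with the number of genes above each bar. The share falls with level in both, and above 200 TPM none of the 26 proteasome genes was 4-fold apart.

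Across the 50 genes the log2(TPM + 1) values of the libraries had a Pearson r of 0.779 and a Spearman rho of 0.818, given as a description across genes, which are not independent replicates. Over the 14 core genes r was 0.681 and rho 0.723, and over the 17 cap genes r was 0.600 and rho 0.593. The plot of one library against the other shows the core genes in the upper right and 4 of the chaperones (Psmd5, Psmg1, Psmg2 and Psmg3) along the left edge.

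**Figure D4:**
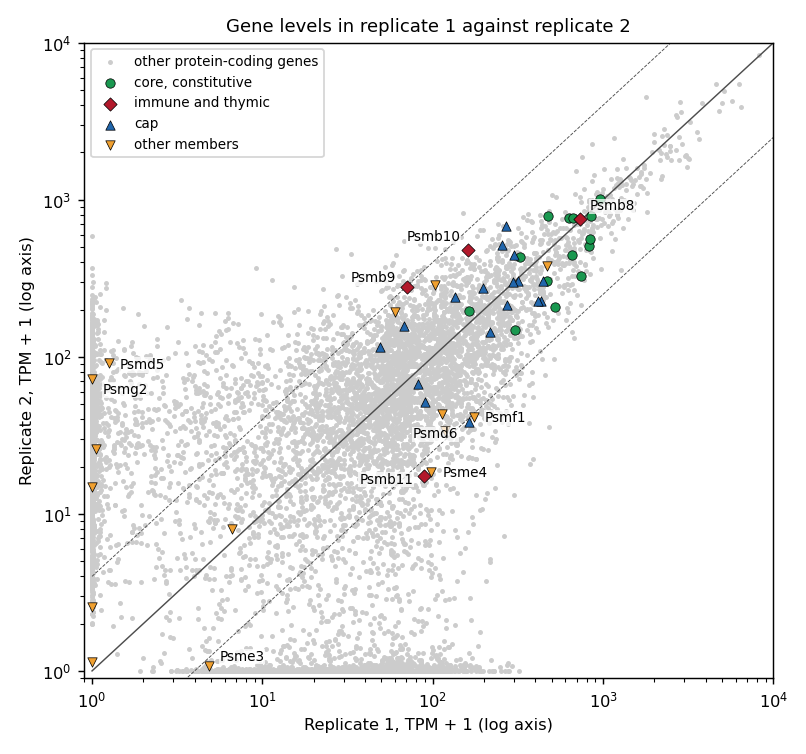
TPM + 1 in replicate 1 (x, log axis) against replicate 2 (y, log axis) for proteasome genes by class and other protein-coding genes (grey), with the line of equal level and dashed lines at 4-fold. Core genes lie near the diagonal at high level, Psmb11 lies past the lower dashed line, and Psmb9 lies on the inner side of the upper one.

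For 42 of the 50 genes, which had 10 TPM or more in both libraries, the transcript tables show whether the level came from coding transcripts. The top transcript was the same in both libraries for 37, and 30 had 90% or more of their TPM in coding transcripts in both. Coding transcripts gave less than 50% in 1 or both libraries for 4 genes, Psma3, Psmb4, Psmd1 and Psme4. The Psmb4 top transcript was Psmb4-202, annotated as a retained intron, with 58.5% and 60.0% of the gene's TPM. In Psma3, coding transcripts gave 49.3% and 28.0%, and in Psmd1 98.9% and 25.0%. Counts were not whole for 14 of the 50 genes (tolerance 0.005), as happens where the estimate divided reads among genes, and exons of 15 overlapped another gene.

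Genes that work with the proteasome but have other symbols were read from lists of names. Of 12 names 11 were matched, 9 of these had enough counts to compare, and 1, the ubiquitin ligase Ube3c (703 and 46 counts), was 4-fold apart. Of protein-coding genes with a mean of 50 to 100 TPM, 31.2% were 4-fold apart. The share was 15.3% at 100 to 200 TPM and 6.63% at 200 to 500 TPM. Ube3c, with a mean of 3.69 TPM, lay below these levels. Sem1, the smallest cap subunit, had 227 and 235 TPM, and Adrm1, a ubiquitin receptor of the cap, had 130 and 201 TPM. The cap deubiquitinases Uchl5 and Usp14 had 127 and 105 TPM and 125 and 32.5 TPM. Akirin2, which brings proteasomes into the nucleus, was listed at 0 in both libraries.

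Of 6 shuttle genes, whose proteins bring ubiquitin-tagged substrates to the cap, 5 were 4-fold apart, beside 50.5% of protein-coding genes and 67.8% of those at 10 to 50 TPM. Rad23b (2491 and 102 counts) and Ubqln1 (1263 and 41 counts) were higher in replicate 1, and Ubqln2, Ubqln4 and Ddi2 had 0 to 1 counts in replicate 1 and 489 to 3376 in replicate 2. Of 7 regulators, 4 were 4-fold apart and all 4 were higher in replicate 2, a share near the same 50.5%. Among them was Nfe2l1, the transcription factor that raises proteasome genes when proteasome activity falls, with 0 and 2168 counts. None of 5 genes for ubiquitin and its activating enzyme was 4-fold apart, with Ubb at 5115 and 4916 TPM. Among protein-coding genes at 500 TPM or more, 0% were 4-fold apart. At 100 to 200 TPM, where Uba1 lay with a mean of 150 TPM, 15.3% were.

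The genes that load proteasome products onto MHC class I were read in both libraries. None of 10 was 4-fold apart in TPM + 1, and none of the 3 immune subunits was. At the levels of most of these genes few were: 15.3% of protein-coding genes at 100 to 200 TPM, 6.63% at 200 to 500 TPM and 0% above. Canx (mean 91.8 TPM) and Erap1 (mean 43.1 TPM) were lower. The shares there were 31.2% at 50 to 100 TPM and 67.8% at 10 to 50 TPM. Psmb9 lay just short of the cut, at 3.93-fold, and was 7.12-fold apart in counts per mouse count. B2m, the light chain of class I, had 2351 and 1966 TPM. Tap1 and Tap2, which carry the peptides, had 181 and 117 TPM and 149 and 161 TPM. Psmb9, a neighbour of Tap1, had 69.2 and 275 TPM, so Psmb9 and Tap1 had log2 ratios of opposite sign. Their exons overlap on opposite strands, so reads there may be assigned to the wrong gene. Psmb8, on the other side of Tap1, had 734 and 749 TPM.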

How the data were processed

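Thymus RNA of 2 newborn pups (1 group, replicates numbered by the labels) was sequenced with spike-ins, in an assay the labels name single cell RNA-seq. The deposited tables hold expected counts, which are the authors' estimated reads and need not be whole, and TPM, which the authors scaled to 1000000 over genes and spike-ins. The transcript tables also hold each transcript's percent of its gene, as deposited by the authors. The assembly was mm10 per the labels and the annotation M4 per the deposited text notes. Not given in the sources used here are the aligner, the counting program and the use of strand. Nothing was pooled.

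GENCODE M21 (GRCm38) held 42462 of the 43346 mouse IDs and gave names, types and positions. TPM was rescaled over mouse genes. Libraries were compared as log2 ratios (replicate 1 over replicate 2) of TPM plus a pseudocount of 1, at a mean of 100 or more counts and called at 4-fold. A count of 0 was given a floor of 3 counts, and intervals are exact at 95%. The threonine codon was found by translating each coding transcript. No p-values were computed, as there is 1 group. The 4-fold call was also run on simulated counts with planted changes. These held counting noise only and no other variation between libraries, so they give no error rate for the calls made here. Every member is named, and some genes of the other lists are not reported here. The members, gene lists and alternatives were chosen with earlier results of these data known. Alternatives used other estimates, scalings (edgeR 4.0.16 TMM factors and DESeq2 1.42.0 size factors on rounded counts), pseudocounts, filters and thinning. Python 3.11.15, pandas 2.3.3, scipy 1.17.1 and Biopython 1.88 were used.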

Additional observations from a re-analysis of the deposited data

How the results depend on the processing

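No paired analysis was possible because the series has 1 group. Leaving out a library leaves 1, whose values the report gives. With 2 libraries such a value always lies within the SD, so it says nothing of stability. The beta2 ratio has opposite signs in the 2 libraries. Of 99 other alternative values for the main measures, 88 moved by less than the spread between libraries (for counts, stayed near the reported count). The other 11 were as follows. With coding transcripts only, the alpha ring median was 515 TPM (596 as reported) and the core spread 0.90 (0.79). The cap non-ATPase median was 206 TPM with spike-ins kept in the total and 230 TPM with mitochondrial genes left out (220), and the activators had a mean over members of 136 TPM (median 57.4). Without length correction, the beta5 log2 ratio was 2.48 (2.05) and the thymic share 17.8% (5.31%). The count of members 4-fold apart was 9, and it was 22 at 2-fold, 4 at 8-fold, 5 with a pseudocount of 5 TPM (without Psmd6, Psme3, Psmf1 and Psmg3, so with no constitutive core or cap gene) and 5 at a mean of 1000 counts. With posterior mean TPM it was 8, without Psme3. With TMM or DESeq2 scaling of counts it stayed at 9, with Psmb9 in place of Psme4, and with coding transcripts only, chosen after seeing the data, it was 8, without Psme4 and Psmg3 and with Psmd1. With 2 libraries, the SD of each value is itself poorly known.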

Other observations

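The promoters of the proteasome genes were searched for 4 short motifs, on both strands, in RefSeq sequence of GRCm38.p6 from 250 bases before to 50 bases after each gene's start. Of the 50 genes, 42 had an entry. The antioxidant response motif TGACNNNGC, linked to Nfe2l1 and its relatives, was in 6 of 42 (14.3%), against 3781 of 27025 genes with a promoter entry. The interferon-stimulated motif GAAANNGAAA was in 5 of 42 (11.9%), against 3.99%, and these were Psmb3, Psmd4, Psmd9, Psme1 and Psmg4. The interferon-gamma motif TTCNNNGAA was in 3 of 42 (7.14%), against 9.55%, and these were Psmb8, Psmd2 and Psmg1. The CCAAT box was in 15 of 42 (35.7%), against 41.1%. Different motifs did not overlap each other in these promoters. The matches are descriptions of the letters in a window of 300 bases.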
